A study of Mus musculus with 15 samples.

Results

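Endothelial and VEGF pathway genes of the kidney were examined in 10 genes of the 33058 in the deposited transcript table: Vegfa, Kdr, Flt1, Tek, Pecam1, Cdh5, Emcn, Ehd3, Plvap and Hif1a. They were chosen by name. The level of a gene was the sum of the FPKM (a read-fragment count per transcript length, relative to its library's total) of its transcripts that matched or overlapped the exons of the gene on its strand. This gave 75 transcripts of the 129029 in the table, 46 annotated and 29 assembled by the authors.

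RNA was sequenced from one kidney piece of each of 15 male C57BL/6 mice (C57BL/6J in the study's methods), 5 at 3 months, 5 at 12 months and 5 at 24 months of age. The labels name no treatment or transgene, and the groups differ in age. The study compared young (3-month-old) with old (24-month-old) kidneys. Mice are named here by age and by the number in their label, and all the titles begin with the same 3M prefix although the age labels give 3 ages.

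VEGF-A, the product of Vegfa, is secreted in the kidney by podocytes and tubular cells and acts on nearby endothelial cells. Its main signalling receptor is VEGFR2, encoded by Kdr, while VEGFR1, encoded by Flt1, binds VEGF-A tightly and signals weakly. A truncated, secreted VEGFR1 holds VEGF-A away from VEGFR2. Tek encodes Tie2, the receptor of the angiopoietins, which keeps vessels quiescent. Hif1a encodes the oxygen-regulated subunit of a transcription factor that induces Vegfa, and its protein is controlled mainly through degradation rather than through mRNA level.

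Flt1 makes its membrane and soluble receptors by a choice at the end of exon 13, and the sequences at that point are shown because the isoform results below rest on it. The first 30 bases, in lower case, are the end of exon 13, which both transcripts share. Capitals mark the next 95 bases, which are the first of exon 14 in the full-length transcript (chr5:147634429-147634523, minus strand, GRCm38) and the unspliced start of intron 13 down to the stop codon in the soluble transcript (chr5:147639130-147639224). Both are from the GENCODE M21 transcripts.
full-length Flt1 (ENSMUST00000031653): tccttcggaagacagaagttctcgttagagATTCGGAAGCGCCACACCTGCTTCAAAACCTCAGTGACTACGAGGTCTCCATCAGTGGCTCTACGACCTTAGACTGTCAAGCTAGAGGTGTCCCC
soluble Flt1 (ENSMUST00000110529): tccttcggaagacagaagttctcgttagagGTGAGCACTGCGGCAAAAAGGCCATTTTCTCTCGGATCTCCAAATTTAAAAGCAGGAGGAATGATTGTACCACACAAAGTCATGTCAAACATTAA
The full-length transcript has 30 exons and 1333 codons, which include the membrane span and the kinase domain. The soluble transcript has 13 exons and 688 codons and lacks both.

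Vegfa forms differ by coding exons 6 and 7, which carry the heparin-binding residues and set how firmly the ligand is held by the matrix. The coding sequence from the end of exon 5 to the start of exon 8 is shown for the 3 main forms (chr17:46018862-46024082 with introns removed, minus strand, GRCm38, GENCODE M21). Capitals mark exon 6, which of these only the matrix-bound form holds, and the shortest form lacks exon 7 as well.
VEGF188 type (ENSMUST00000217017): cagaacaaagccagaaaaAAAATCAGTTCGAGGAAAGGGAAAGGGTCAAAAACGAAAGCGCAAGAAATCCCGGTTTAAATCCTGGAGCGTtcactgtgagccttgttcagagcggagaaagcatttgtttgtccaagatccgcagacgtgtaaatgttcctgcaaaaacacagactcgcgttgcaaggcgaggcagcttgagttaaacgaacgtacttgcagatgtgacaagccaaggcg
VEGF164 type (ENSMUST00000214739): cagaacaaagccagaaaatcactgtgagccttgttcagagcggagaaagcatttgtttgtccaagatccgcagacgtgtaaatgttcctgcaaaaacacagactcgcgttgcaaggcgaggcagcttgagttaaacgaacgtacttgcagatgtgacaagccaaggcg
VEGF120 type (ENSMUST00000167860): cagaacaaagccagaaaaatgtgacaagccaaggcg

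All 10 genes were detected in every mouse, and at the gene level none of the 10 passed the test in any comparison of ages. The test was limma on log2(FPKM + 1) over all genes, with a Benjamini-Hochberg adjusted p under 0.05 required. Between 24 and 3 months, 0 of 10 members were called against 1.22% of all genes tested. Between 12 and 3 months 0 of 10 were called against 0.25% of all genes, and between 24 and 12 months 0 of 10 against 0.0031%. At an unadjusted p under 0.05 the members numbered 2 for 24 against 3 months, where 14.9% of all genes passed, 0 for 12 against 3 months (14.3%) and 0 for 24 against 12 months (6.43%). The levels of the ages overlapped for all 10 members in all 3 comparisons, while 4.73%, 4.11% and 1.07% of all genes did not overlap.

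**Figure D1:**
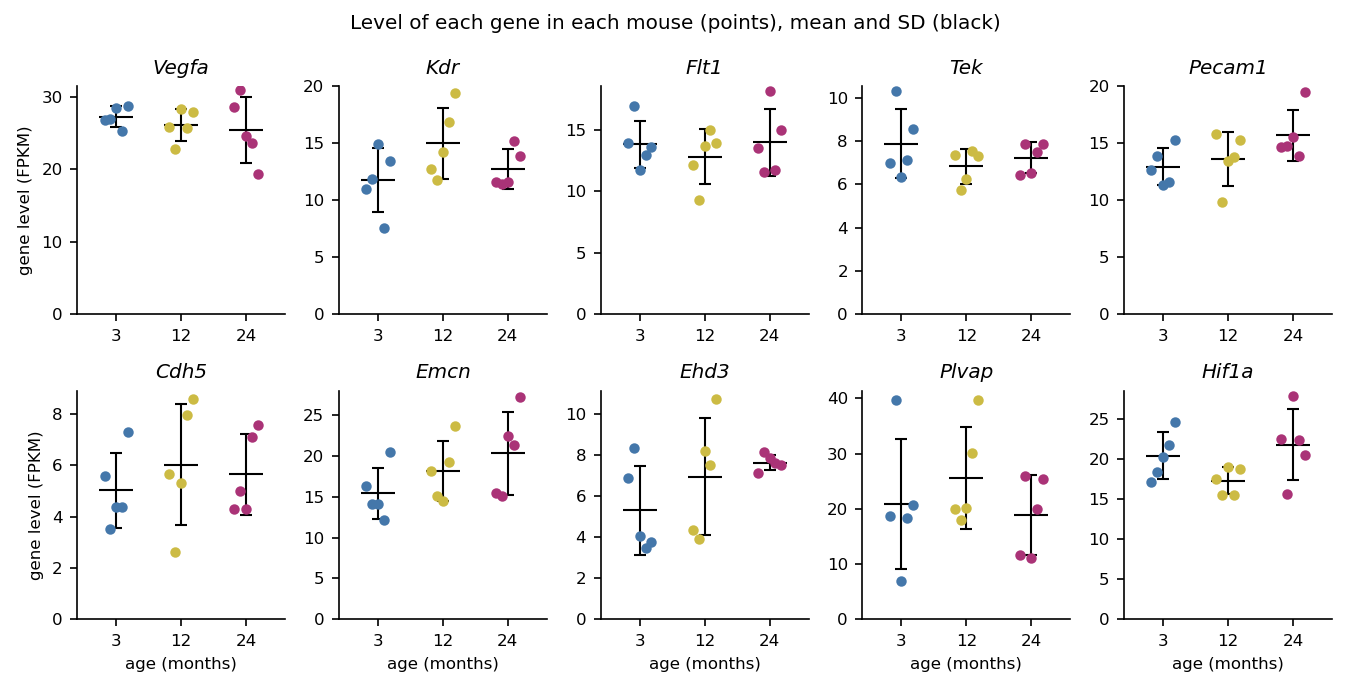
FPKM of each gene (vertical axis) in each mouse at 3, 12 and 24 months (horizontal axis); points are mice, the black line is the mean and the bars the SD of 5 mice. The 3 ages overlap in every panel, and Plvap has the widest spread, from 6.84 to 39.7 FPKM.

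The estimates bound how large a change these mice could have hidden. For 24 against 3 months the 95% intervals of all 10 members lay within 1 log2 unit of no change, from -0.98 to 0.97 at the widest. These units are of log2(FPKM + 1), which understates changes of low genes. A bound near 1 can therefore stand for a larger change in FPKM. The 12-month comparisons left 9 of 10 within that limit, Plvap being the exception in both, with bounds reaching 1.29 for 12 against 3 months and -1.12 for 24 against 12 months. The median log2 difference of the members was 0.10 for 24 against 3 months, 0.12 for 12 against 3 months and 0.09 for 24 against 12 months, beside medians over all genes tested of 0.02, 0.02 and -0.0013. Over genes with a mean of at least 1 FPKM, which all the members reach, the medians were 0.05, 0.08 and -0.02. In whole-kidney RNA, fewer cells of a type and less RNA per cell cannot be told apart.

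**Figure D2:**
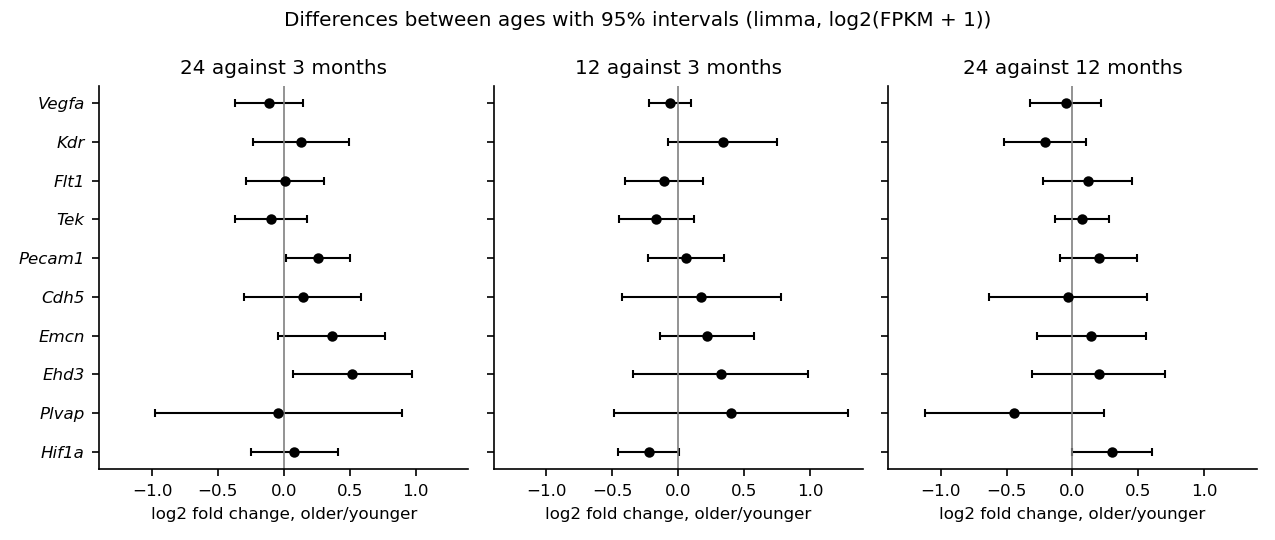
log2 difference between ages (horizontal axis, older over younger) of each gene (vertical axis) for the 3 comparisons; points are limma estimates on log2(FPKM + 1) and bars are 95% intervals. The intervals of Pecam1 and Ehd3 for 24 against 3 months end above 0 without adjustment, and the widest intervals are those of Plvap.

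Vegfa, the ligand, had the highest mean of the 10 genes, 26.3 FPKM over the 15 mice. In the 3-month-old mice it was at 26.8, 27.0, 28.5, 25.3 and 28.8 FPKM, in the 12-month-old mice at 25.8, 22.8, 28.3, 25.7 and 27.95 FPKM, and in the 24-month-old mice at 28.6, 30.9, 24.5, 23.6 and 19.4 FPKM. The 3-month-old mice lay close together, whereas the 24-month-old mice held both the lowest and the highest value of the series. The difference of 24 against 3 months was -0.11 (SE 0.11, limma adjusted p = 0.670), with an interval from -0.37 to 0.14.

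The spliced form of Vegfa did not separate the ages either. Of its summed FPKM, 63.6% was in annotated transcripts and the rest in assembled ones. Among the annotated coding transcripts, the VEGF164 type, the form that is both secreted and matrix-binding, held 74.1% ± 4.73 (SD, n = 5) at 3 months, 76.0% ± 7.97 at 12 months and 73.3% ± 7.33 at 24 months. The freely diffusing VEGF120 type held 14.8% ± 4.82, 14.9% ± 3.43 and 14.2% ± 4.14, and the matrix-bound VEGF188 type 10.97% ± 2.62, 9.05% ± 6.59 and 11.5% ± 8.03. These are estimates, since StringTie divides reads between transcripts that share all other coding exons. The exact permutation p of the 9 differences ranged upward from 0.571, for the VEGF188 type at 12 against 3 months.

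Kdr, the signalling receptor of VEGF-A, was measured at 10.98, 11.9, 14.9, 7.52 and 13.4 FPKM at 3 months, at 12.8, 11.8, 14.2, 16.8 and 19.4 FPKM at 12 months and at 11.6, 11.4, 11.6, 15.2 and 13.9 FPKM at 24 months. The lowest value belonged to 3-month mouse 8 and the highest to 12-month mouse 21, and the other mice of all ages lay between 10.98 and 16.8 FPKM. The log2 difference was 0.13 (SE 0.16, adjusted p = 0.731) for 24 against 3 months and 0.34 (SE 0.18, adjusted p = 0.455) for 12 against 3 months by limma. Without 3-month mouse 8 the first of these was -0.01.

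Flt1 as a whole differed least of the 10 genes between 24 and 3 months. It was at 13.9, 16.9, 11.8, 12.98 and 13.6 FPKM at 3 months, at 12.2, 9.27, 13.7, 15.04 and 13.9 FPKM at 12 months and at 13.6, 11.6, 18.1, 11.7 and 14.99 FPKM at 24 months. The difference was 0.01 (SE 0.13, limma adjusted p = 0.985) for 24 against 3 months and its sign changed with the scaling. Kdr and Flt1 means were close, at 13.2 and 13.6 FPKM over the 15 mice, and Flt1 was the higher in 8 of 15 mice.

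Within Flt1, the mean share of FPKM listed in soluble transcripts was lower at 12 months than at either other age, without passing after adjustment. The soluble share was the part of summed Flt1 FPKM in the 3 transcripts that end before exon 14. Most of it was in the coding soluble transcript printed above. The others were a retained intron and a non-coding processed transcript. With the coding one alone, mean shares differed by -10.9 points (12 against 3 months) and 9.02 points (24 against 12 months). That transcript continues into unspliced intron sequence, so reads of unspliced Flt1 RNA may count as soluble. Their part was not tested. The soluble share was 26.2%, 33.7%, 37.2%, 38.6% and 36.0% at 3 months, 18.2%, 23.1%, 27.8%, 19.5% and 19.4% at 12 months and 36.6%, 36.3%, 26.8%, 32.6% and 29.0% at 24 months. At 12 months 4 of the 5 mice lay below every mouse of the other ages, and mouse 19, at 27.8%, overlapped both.

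The mean soluble share was 34.3% ± 4.89 (SD, n = 5) at 3 months, 21.6% ± 3.94 at 12 months and 32.3% ± 4.37 at 24 months. The 12-month mean was lower than the 3-month mean by 12.7 percentage points (difference -12.7, exact permutation p = 0.0159) and the 24-month mean was higher than the 12-month mean by 10.7 points (exact permutation p = 0.0159). With 5 against 5 mice the smallest p this test can give is 0.00794. Neither passed after adjustment over the 12 share comparisons made for Flt1 and Vegfa (adjusted p = 0.0952 for both, exact permutation tests). For 24 against 3 months the difference was -2.04 points (exact permutation p = 0.492), and its direction depended on which transcripts were counted: among transcripts that matched the annotation exactly, it was 12.7 points (exact permutation p = 0.143).

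The coding soluble transcript itself showed the same order of levels. It was at 3.17, 5.19, 4.03, 4.02 and 3.90 FPKM at 3 months, at 1.76, 1.93, 3.42, 2.45 and 2.25 FPKM at 12 months and at 4.13, 3.87, 3.94, 3.10 and 3.86 FPKM at 24 months. The log2 difference was -0.60 (SE 0.16, unadjusted p = 0.0037, adjusted p = 0.442, limma over all transcripts) for 12 against 3 months and 0.52 (SE 0.14, unadjusted p = 0.00433, adjusted p = 0.838) for 24 against 12 months. Over all member transcripts, 0 of 75 passed the adjusted test for 24 against 3 months (0.0192% of all transcripts did), 0 of 74 for 12 against 3 months (0.00481%) and 0 of 75 for 24 against 12 months (0.00559%). At an unadjusted p under 0.05 the member transcripts numbered 7, 5 and 5 in these comparisons, or 9.33%, 6.76% and 6.67%, beside 7.9%, 7.46% and 4.47% of all transcripts.

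The full-length Flt1 transcript spread more widely. It was at 4.68, 6.66, 2.32, 4.33 and 4.79 FPKM at 3 months, at 2.88, 2.67, 5.19, 4.70 and 8.21 FPKM at 12 months and at 1.45, 2.74, 7.95, 1.13 and 1.85 FPKM at 24 months. At 24 months 4 of 5 mice lay at or below 2.74 FPKM while mouse 33 stood at 7.95 FPKM, and the log2 difference of 24 against 3 months was -0.63 (SE 0.39, limma adjusted p = 0.721). In the same comparison an assembled transcript of 19 exons went from a mean of 1.497 to 2.73 FPKM (limma unadjusted p = 0.0106, adjusted p = 0.453) and one of 29 exons from 0.856 to 1.97 FPKM (unadjusted p = 0.0286, adjusted p = 0.579). StringTie divides reads between these and the full-length transcript.

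**Figure D3:**
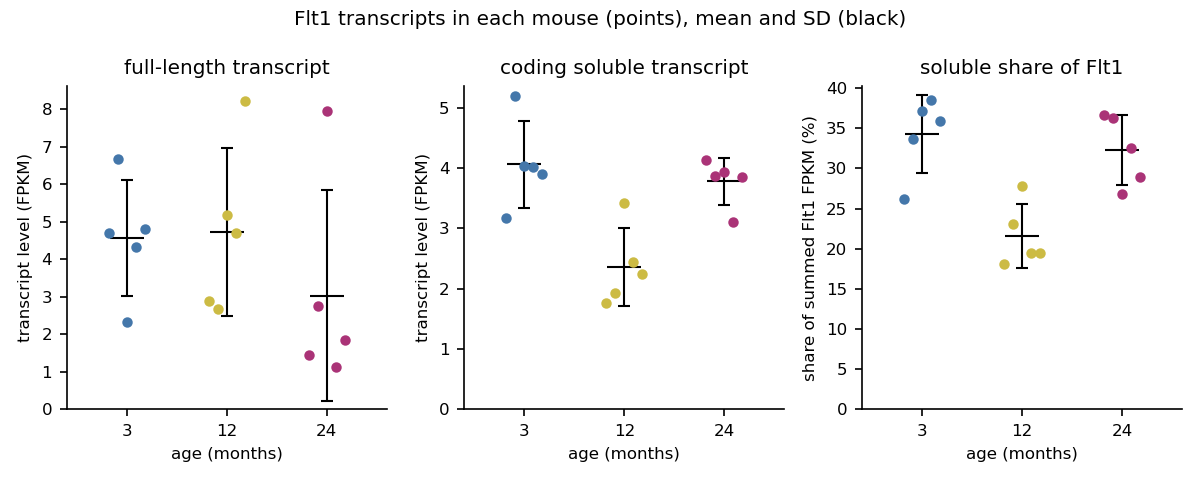
FPKM of the full-length and of the coding soluble Flt1 transcript, and soluble share of Flt1 in percent (vertical axes), in each mouse by age in months (horizontal axes); black lines are means and bars the SD of 5 mice. The soluble share at 12 months, 18.2% to 27.8%, overlaps the other ages through 1 mouse.

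Tek, the angiopoietin receptor, was at 6.99, 10.3, 6.34, 7.14 and 8.57 FPKM at 3 months, at 7.34, 5.73, 6.24, 7.56 and 7.30 FPKM at 12 months and at 6.41, 7.86, 6.53, 7.50 and 7.84 FPKM at 24 months. Apart from 3-month mouse 6 these lay within 5.73 to 8.57 FPKM at every age. The log2 difference of 24 against 3 months was -0.09 (SE 0.12, limma adjusted p = 0.735).

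The transcript that carried Tek was not the same in every mouse. The annotated transcript of 22 exons, ENSMUST00000073939, was listed between 1.81 and 7.58 FPKM in 13 mice and at 0 in 12-month mouse 21 and 24-month mouse 34. In those mice the transcript of 23 exons, ENSMUST00000102798, was listed at 6.55 and 7.29 FPKM, against at most 0.126 FPKM in the others, while the Tek total was 7.30 and 7.50 FPKM. The longer transcript holds an exon of 153 bases that the other lacks (exon 4, chr4:94799127-94799279, plus strand, GRCm38), shown in capitals between bases of the neighbouring exons because reads over it would tell the transcripts apart. The sequence is from GENCODE M21.
Tek exon of ENSMUST00000102798: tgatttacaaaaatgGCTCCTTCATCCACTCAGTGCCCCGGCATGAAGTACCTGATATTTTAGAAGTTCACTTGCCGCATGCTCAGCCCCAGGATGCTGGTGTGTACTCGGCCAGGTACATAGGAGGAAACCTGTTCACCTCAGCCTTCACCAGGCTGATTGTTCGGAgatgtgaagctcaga
The all-or-none split in single mice was seen in FPKM that StringTie had assigned. An assembled Tek transcript, MSTRG.24991.4, also varied. It was listed at 4.73 and 5.54 FPKM in 24-month mice 33 and 35, where ENSMUST00000073939 was at 1.81 and 2.30 FPKM. In the other mice it was at most 2.73 FPKM. A circular RNA of Tek, circRNA3534 of 2 exons (chr4:94798611-94799279), ends at the last base of exon 4. Its estimated counts were 39.2 to 81.33 at 3 months, 47 to 81 at 12 months and 46 to 78 at 24 months. Reads of the linear transcripts over this exon were not analysed here, and whether they held it in each mouse was not tested.

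Pecam1, an adhesion molecule of endothelial junctions that leukocytes and platelets also carry, was one of the 2 genes with an unadjusted p under 0.05 for 24 against 3 months. It was at 12.7, 13.9, 11.3, 11.6 and 15.2 FPKM at 3 months, at 15.8, 9.81, 13.4, 13.8 and 15.2 FPKM at 12 months and at 14.7, 14.8, 15.5, 13.8 and 19.5 FPKM at 24 months. Of the 24-month-old mice 3 lay in the upper part of the 3-month range, and mice 33 and 35 lay above it. The log2 difference was 0.26 (SE 0.11, unadjusted p = 0.0408, adjusted p = 0.306, limma), and the exact permutation p of the mean FPKM was 0.0556.

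The transcript of 14 exons, ENSMUST00000103069, was the only member transcript of the 75 whose levels did not overlap between 24 and 3 months, where 2.13% of all transcripts did not overlap. It was at 3.00, 3.48, 2.34, 4.26 and 4.24 FPKM at 3 months, at 2.89, 4.38, 6.06, 5.08 and 6.38 FPKM at 12 months and at 7.73, 5.15, 4.73, 8.46 and 10.3 FPKM at 24 months. Its log2 difference of 24 against 3 months was 0.86 (SE 0.22, unadjusted p = 0.00279, adjusted p = 0.332, limma over all transcripts), so it did not pass the test. The transcript of 15 exons, ENSMUST00000080853, had means of 3.79, 3.70 and 2.59 FPKM at 3, 12 and 24 months.

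A circular RNA of Pecam1 was the only measurement of these genes that passed an adjusted test between ages under the main settings. The authors deposited estimated counts of 11929 circular RNAs, covalently closed RNAs made by back-splicing, and 13 of these came from 6 of the 10 genes. The Pecam1 circle circRNA8199, of 3 exons (chr11:106695754-106699885), had normalised counts (CPM, scaled to the sum of circular RNA counts with TMM) of 32.3, 34.005, 28.4, 32.3 and 36.7 at 3 months, 47.8, 34.8, 37.7, 33.6 and 48.9 at 12 months and 45.1, 40.8, 44.4, 41.2 and 38.7 at 24 months. Every 24-month-old mouse lay above every 3-month-old one, and the 12-month-old mice spanned both. The share of all circular RNAs without overlap between these ages was not counted, so the separation has no background to be read against.

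The circle rose between 3 and 24 months by 0.36 on the log2 scale (SE 0.09, adjusted p = 0.0178, edgeR quasi-likelihood test over all circular RNAs). This was 1 of the 13 circles called, where 13.3% of all circular RNAs were called. Without 24-month mouse 33 the adjusted p was 0.0532 with a log2 difference of 0.34, and the count was 0 of 13. At an unadjusted p under 0.05 the circles numbered 3 of 13, beside 28.8% of all circular RNAs. The other 2 Pecam1 circles had differences of 0.28 (adjusted p = 0.144) and 0.12 (adjusted p = 0.503), edgeR.

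Leukocyte markers were read beside Pecam1, since leukocytes carry it too. Of 6 such markers 4 were higher for 24 against 3 months at an unadjusted limma p under 0.05. Ptprc, which encodes the pan-leukocyte protein CD45, had means of 2.48 FPKM at 3 months and 4.64 FPKM at 24 months. The summed level of the 6 ranged from 2.88 to 8.62 FPKM at 3 months and from 6.61 to 12.3 FPKM at 24 months. None of the 6 was at 0 in any mouse, and their part in the Pecam1 values was not tested.

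**Figure D4:**
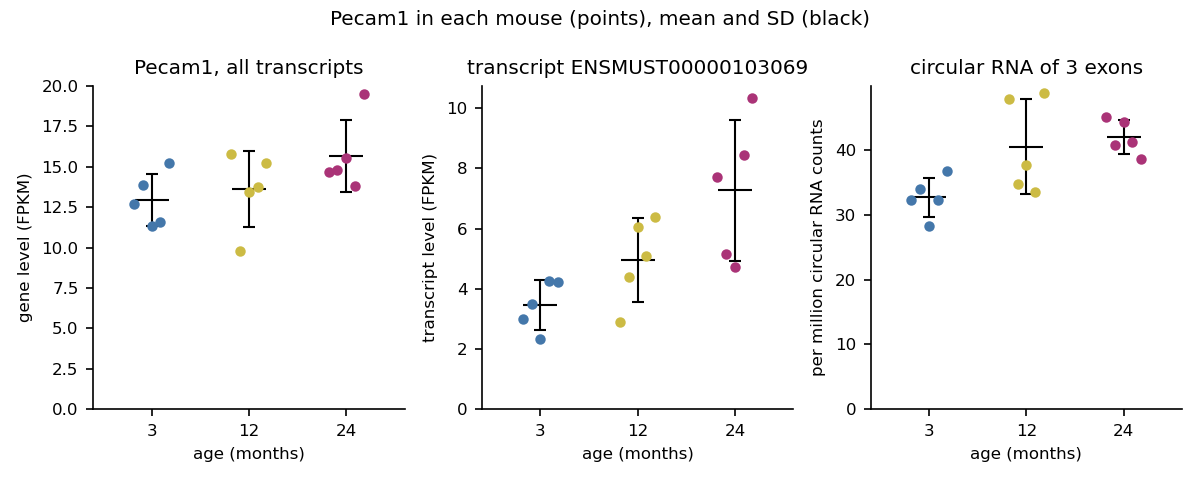
Summed Pecam1 FPKM, FPKM of transcript ENSMUST00000103069 and normalised count of circRNA8199 in CPM of all circular RNA counts (vertical axes) in each mouse by age in months (horizontal axes); black lines are means and bars the SD of 5 mice. The transcript and the circle do not overlap between 3 and 24 months, and the gene total does. Of all transcripts 2.13% did not overlap, and the share of circular RNAs was not counted.

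Cdh5, which encodes VE-cadherin, the adherens junction protein of endothelium, was the lowest of the 10 genes. It was at 5.57, 3.52, 4.35, 4.37 and 7.29 FPKM at 3 months, at 5.65, 2.62, 5.32, 7.95 and 8.61 FPKM at 12 months and at 4.30, 4.98, 4.30, 7.08 and 7.57 FPKM at 24 months. The lowest and the highest mouse were both 12 months old, and the log2 difference of 24 against 3 months was 0.14 (SE 0.20, limma adjusted p = 0.754).

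Emcn encodes endomucin, a sialomucin of capillary and venous endothelium. It was at 16.3, 14.2, 14.1, 12.2 and 20.4 FPKM at 3 months, at 18.2, 15.1, 14.5, 19.2 and 23.6 FPKM at 12 months and at 15.5, 15.1, 22.4, 21.4 and 27.2 FPKM at 24 months. Of the 24-month-old mice 3 lay above every 3-month-old mouse, while mice 31 and 32 lay among them. The log2 difference was 0.36 (SE 0.18, unadjusted p = 0.0759, adjusted p = 0.401, limma), and its circle circRNA7319 of 2 exons had a difference of 0.43 (SE 0.20, edgeR adjusted p = 0.172).

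Ehd3, an endocytic recycling protein that in the kidney marks glomerular endothelium, had the largest estimate of the 10 genes for 24 against 3 months. It was at 6.88, 8.36, 4.06, 3.48 and 3.75 FPKM at 3 months, at 4.35, 3.92, 8.22, 7.51 and 10.8 FPKM at 12 months and at 7.12, 8.14, 7.85, 7.61 and 7.53 FPKM at 24 months. The 3- and 12-month-old mice fell into low values of 3.48 to 4.35 FPKM and high values of 6.88 FPKM or more, and all 24-month-old mice were in the high range. The log2 difference was 0.52 (SE 0.20, unadjusted p = 0.0287, adjusted p = 0.264, limma), the exact permutation p was 0.0794, and 3-month mouse 6, at 8.36 FPKM, lay above every 24-month-old mouse.

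Podocyte markers, which share the glomerulus with Ehd3, gave no call between 24 and 3 months in 6 of 6. Their summed level ranged from 51.6 to 70.4 FPKM at 3 months, from 55.5 to 76.6 FPKM at 12 months and from 57.1 to 77.8 FPKM at 24 months. The part of glomerular content in the Ehd3 values was not tested.

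Plvap, which forms the diaphragms of fenestrated peritubular and ascending vasa recta capillaries, had the widest range of FPKM of the 10 genes. It was at 18.7, 39.7, 6.84, 18.4 and 20.6 FPKM at 3 months, at 19.9, 17.9, 20.05, 30.1 and 39.7 FPKM at 12 months and at 11.6, 26.0, 11.2, 19.97 and 25.4 FPKM at 24 months. The lowest and the highest mouse of the series were both 3 months old. The log2 difference of 24 against 3 months was -0.04 with an interval from -0.98 to 0.89 (SE 0.42, limma adjusted p = 0.972), and without 3-month mouse 6 it was 0.23.

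Hif1a was at 17.1, 18.4, 20.2, 21.7 and 24.6 FPKM at 3 months, at 17.5, 15.6, 19.05, 15.5 and 18.7 FPKM at 12 months and at 22.5, 15.6, 27.9, 22.4 and 20.6 FPKM at 24 months. The 12-month-old mice stayed at or below 19.05 FPKM, and at 24 months all but mouse 32 lay above that. The log2 difference was -0.22 (SE 0.10, unadjusted p = 0.0586, adjusted p = 0.369, limma) for 12 against 3 months, 0.30 (SE 0.13, unadjusted p = 0.0501, adjusted p = 0.776) for 24 against 12 months and 0.08 (SE 0.15, adjusted p = 0.822) for 24 against 3 months. Whether reads were assigned by strand is not given in the sources used here, and the antisense gene Gm15283 overlaps Hif1a with a mean of 2.89 FPKM.

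Of the 5 circular RNAs of Hif1a, 4 had their lowest mean at 12 months too, while circRNA2389, of 3 exons, averaged 25.7, 29.2 and 33.1 CPM at 3, 12 and 24 months. The 5-exon circle circRNA1400 averaged 96.1 ± 16.4 (SD, n = 5), 77.4 ± 6.36 and 97.3 ± 8.65 CPM at 3, 12 and 24 months, and the 3-exon circle circRNA8813 averaged 87.5 ± 11.1, 70.4 ± 4.10 and 85.9 ± 7.20. For 24 against 12 months edgeR gave differences of 0.33 (adjusted p = 0.0737) and 0.28 (adjusted p = 0.0904), and DESeq2 adjusted p-values of 0.00822 and 0.0156. For 12 against 3 months circRNA8813 differed by -0.32 (edgeR adjusted p = 0.0628, DESeq2 adjusted p = 0.0271). By edgeR 0 of 13 circles were thus called in either comparison, with 5 and 3 at an unadjusted p under 0.05 (23.7% and 16.9% of all circular RNAs), where 6.63% of all circular RNAs were called for 12 against 3 months and 0.738% for 24 against 12 months, and DESeq2 called 1 and 2.

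The Vegfa circle, circRNA10458 of 4 exons, was the most abundant of the 13 circles. It averaged 234 ± 29.4, 275 ± 48.8 and 255 ± 42.9 CPM at 3, 12 and 24 months, with a difference of 0.12 (edgeR adjusted p = 0.566) for 24 against 3 months. How the authors assigned reads to a circle is not given in the sources used here, so reads of the linear transcript over the same exons may be part of these counts.

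By level, which FPKM allows to compare between genes because it is per length, the order over the 15 mice was Vegfa, Plvap, Hif1a, Emcn, Pecam1, Flt1, Kdr, Tek, Ehd3 and Cdh5, with means from 26.3 to 5.57 FPKM. Only at 2 steps did the lower gene stay below the higher one in all 15 mice, from Emcn to Pecam1 (17.96 and 14.1 FPKM) and from Kdr to Tek (13.2 and 7.31 FPKM). The other neighbours differed by less than 1 SD of their differences between mice. The 8 endothelial genes summed to 93.0 ± 18.5 FPKM at 3 months, 105 ± 23.9 FPKM at 12 months and 102 ± 14.3 FPKM at 24 months (SD, n = 5).

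Pairs of endothelial genes leaned to a positive correlation across mice, though not at every age. With each age centred on its mean, all 28 pairs of the 8 endothelial genes had a positive Pearson's r over the 15 mice, with a median of 0.41. The share of positive r among other gene pairs was not counted. Within single ages some of the 28 pairs were negative. For Flt1 with Plvap r was 0.94, 0.67 and -0.57 at 3, 12 and 24 months, and for Cdh5 with Ehd3 -0.40, 0.78 and -0.03. Of all 45 pairs of the 10 genes, 1 passed a permutation test within ages after adjustment over the 45, Tek with Plvap (r = 0.86, permutation p = 0.00078, adjusted p = 0.0351, and Spearman's rho = 0.82, permutation p = 0.00088, adjusted p = 0.0396). Without 3-month mice 6 and 7, the farthest from the median of Tek, r was 0.76 (permutation p = 0.00675, adjusted p = 0.152), so the adjusted call was lost without those mice while r stayed positive. Within the ages r was 0.89 at 3 months, 0.68 at 12 months and 0.99 at 24 months.

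Cdh5 with Emcn came next by p and did not pass (r = 0.71, permutation p = 0.00529, adjusted p = 0.0959, Spearman's rho = 0.66, permutation p = 0.0108, and r = 0.73 without the 2 farthest mice). Flt1 with Ehd3 (r = 0.61, permutation p = 0.0096, adjusted p = 0.0959) and Tek with Pecam1 (r = 0.64, permutation p = 0.00971, adjusted p = 0.0959) followed. Pecam1 with Emcn did not pass either (r = 0.66, permutation p = 0.0107, adjusted p = 0.0959, Spearman's rho = 0.61, permutation p = 0.0201, and r = 0.56 without the 2 farthest mice). Pecam1 with Cdh5 had an r of 0.67 (permutation p = 0.0238, adjusted p = 0.134), and of 0.19 without the 2 farthest mice. Vegfa and its receptor Kdr had an r of 0.11, and Hif1a and Vegfa an r of -0.08. Within single ages, of 5 mice each, the sign was not the same. For Vegfa with Kdr r was 0.95 at 3 months, 0.65 at 12 months and -0.69 at 24 months. For Vegfa with Hif1a it was 0.31, 0.85 and -0.38. The 10 genes come from the same libraries, so these values also carry what a library's dissection and depth share.

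**Figure D5:**
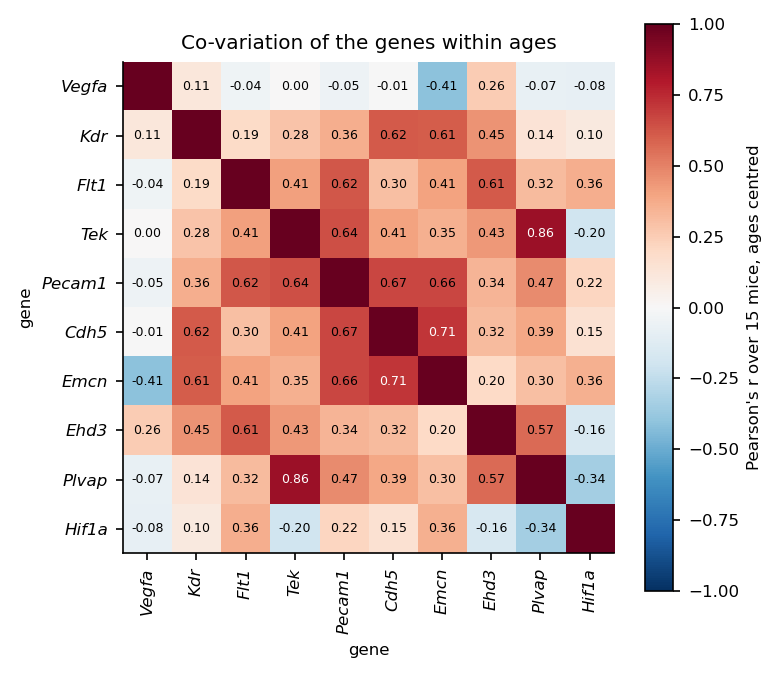
Pearson's r of log2(FPKM + 1) between each pair of genes (both axes) over 15 mice, with each age centred on its mean; colour and printed value give r. The 8 endothelial genes are positive with one another. With them Vegfa ranges from -0.41 (Emcn) to 0.26 (Ehd3), and Hif1a from -0.34 (Plvap) to 0.36 (Flt1).

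The genes whose pattern over the 15 mice was most like the mean of the 8 endothelial genes, of 13438 others with a mean of at least 1 FPKM, were Kdm1b (r = 0.85), Dkk3 (r = 0.83), Zfp410 (r = 0.82), Smox (r = 0.82) and Slc22a15 (r = 0.81). For Vegfa they included Mroh7 (r = 0.90), Tmem28 (r = 0.87), Hook2 (r = 0.87) and Slc35e4 (r = 0.85), of 13445 genes. For Hif1a they were Trim26 (r = 0.89), 2700060E02Rik (r = 0.87), Cdc42se2 (r = 0.86), Vstm5 (r = 0.85) and Trmt11 (r = 0.85). These are the extremes of many genes over few mice and are given as a description.

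Around the members, the other genes of the pathway gave little between 24 and 3 months. Of the other VEGF, angiopoietin and apelin ligands, 9 of 10 were measured and 0 passed the adjusted test. The list was led by Pgf, placental growth factor, at means of 0.0718 and 0.160 FPKM (log2 difference 0.12, limma adjusted p = 0.260), then Angpt2, the vessel-destabilising angiopoietin, at 2.72 and 3.31 FPKM (adjusted p = 0.386) and Angptl4 at 22.5 and 18.97 FPKM (adjusted p = 0.421). The median of the list was 0.10, beside 0.02 over all genes.

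Of 8 other receptors and co-receptors 0 passed, with 2 higher and 1 lower at an unadjusted p under 0.05. Flt4, the receptor of lymphatic and fenestrated endothelium, had means of 2.33 and 2.92 FPKM (log2 difference 0.24, limma adjusted p = 0.243), and Nrp1, a VEGF-A co-receptor, 18.04 and 22.2 FPKM (0.29, adjusted p = 0.256). The integrin Itgb3 had means of 1.22 and 0.747 FPKM without overlap (-0.35, limma adjusted p = 0.168), where 4.73% of all genes did not overlap. Of 13 downstream and Notch genes 0 passed at either level, led by the transcription factor Fli1 at 3.25 and 5.06 FPKM (0.46, limma adjusted p = 0.347), Plcg1 at 20.2 and 23.4 FPKM (adjusted p = 0.493) and Notch4 at 5.19 and 4.26 FPKM (adjusted p = 0.595).

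Among 18 genes of the HIF pathway and its targets 1 passed, and it was lower, where 1.22% of all genes were called. The list was chosen with earlier results of these data known, so the call is a description and not independent support. Ndrg1, a stress-responsive HIF target, fell by 1.60 on the log2 scale between 3 and 24 months (SE 0.21, limma adjusted p = 0.0147), from 978 ± 163 FPKM to 324 ± 71.8 FPKM, with 599 ± 75.0 FPKM at 12 months (SD, n = 5). The 24-month-old mice, at 222 to 401 FPKM, all lay below the 3-month-old mice, at 820 to 1230 FPKM. The gene passed in all 17 alternatives run, with log2 differences from -1.74 to -1.48. The antisense gene Gm17035 overlaps Ndrg1 and was listed at a mean of 435 FPKM, and without a known strand setting their reads cannot be told apart. The glucose transporter Slc2a1, at 12.4 and 8.54 FPKM (-0.46, limma adjusted p = 0.301), and the vasodilator Adm, at 2.12 and 1.48 FPKM (-0.34, adjusted p = 0.307), followed, and the list's median was -0.08.

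Of 30 other endothelial genes 0 passed, with 5 higher and 3 lower at an unadjusted p under 0.05 and a median of 0.13. Egfl7, a secreted endothelial protein, had means of 13.3 and 17.5 FPKM (0.37, limma adjusted p = 0.141), and Sox7 of 1.13 and 0.440 FPKM (-0.64, adjusted p = 0.215). The transcription factor Prox1 had means of 2.602 and 4.14 FPKM (0.55, limma adjusted p = 0.180). Its ages did not overlap, where 4.73% of all genes did not. Which kidney cells carried Prox1 was not tested. Background shares at an unadjusted p under 0.05 were 11.4% of all genes higher and 3.47% lower.

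Other kidney cell types were read beside these genes. Of 7 markers of pericytes, mesangium and smooth muscle 2 were higher at an unadjusted p under 0.05 and 0 passed, with sums of 30.6 to 57.8 FPKM at 3 months and 42.1 to 79.5 FPKM at 24 months. Of 5 proximal tubule markers 2 were lower at an unadjusted p, of 4 thick limb markers 1 was higher, and 0 of 4 distal and collecting, 3 inner medullary and 3 red cell markers differed at that level. Aligned bases ranged from 5.03 to 8.03 Gb per library, and the 3-month-old mice had the lowest median, 6.04 Gb against 7.17 Gb at 12 months and 7.00 Gb at 24 months.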

How the data were processed

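Kidney RNA of 15 mice was sequenced with one library per mouse, each from a separate animal. After adapter trimming with Cutadapt, the authors aligned reads to GRCm38 (Ensembl release 88), built transcripts with StringTie and deposited FPKM and mean coverage (a signal that is not scaled to depth) per transcript. StringTie shares reads between overlapping transcripts, so transcripts of one gene are not independent. The methods describe poly(A) selection and the labels ribosomal RNA removal. Replicate numbers are those of the labels. For circular RNAs the authors deposited estimated counts with FPKM, and the counts summed to between 6974494 and 9889971 counts per mouse. The counts were rounded, and 83.6% to 94.6% of them per mouse were not whole.

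Gene levels were FPKM summed over transcripts whose class code against the annotation was =, c, j or o, which left out 3 intronic and 2 read-through transcripts of the members. Genes detected in any of the 10 mice of a comparison were tested with limma 3.58.1 (eBayes with trend) in R 4.3.3 on log2(FPKM + 1), a scale that understates changes of low genes. The study's count test was not used because FPKM are not counts. Circular RNAs detected in 5 or more of the 10 mice were tested with edgeR 4.0.16 (quasi-likelihood, TMM), with DESeq2 1.42.0 as the alternative, and the SE was taken from the log2 change and its F value. Calls needed a Benjamini-Hochberg adjusted p under 0.05 over all features of a table. Single values were compared by exact 2-sided permutation over 252 assignments, and correlations by 100000 permutations within ages, in Python 3.11.15 with scipy 1.17.1. All fits were tested on simulated data. Aligned bases came from the ratio of coverage to FPKM, and since no read counts per transcript were given, precision rests on the spread between 5 mice.

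The rule for what to name covered the 10 members, their 35 transcripts with a mean of at least 1 FPKM and every Flt1 transcript, of each pathway list the 3 genes with the smallest p for 24 against 3 months, and the 5 genes most like the endothelial mean, Vegfa and Hif1a. Of the transcripts the text describes only some, chosen after their values were seen. Single-gene results of some listed or most alike genes, and the adjusted calls of the leukocyte list, are not reported here. Members and lists were chosen with earlier results of these data known. The alternatives were another pseudocount, an FPKM minimum of 1, TPM, median-of-ratios scaling, a joint fit of all 15 mice, a robust prior on the variance, annotated transcripts alone, DESeq2, no count filter, Spearman's rho and each mouse left out in turn.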

Additional observations from a re-analysis of the deposited data

Results flagged for a closer look

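In each group of 5 mice, the highest or lowest value was noted where its gap to the nearest other mouse, as a part of the group's range, passed Dixon's limit of 0.71. This was done for the 10 genes, their 35 transcripts with a mean of at least 1 FPKM, the 13 circular RNAs and the soluble Flt1 share, 177 groups in all. It marked 14, and chance marks about 1 in 20 groups. No gene total was among them.

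For Flt1 the full-length transcript stood at 7.95 FPKM in 24-month mouse 33, above the other mice at 1.13 to 2.74 FPKM, and the coding soluble transcript at 3.10 FPKM in 24-month mouse 34, below the others at 3.86 to 4.13 FPKM. The Pecam1 transcript ENSMUST00000080853 was at 1.14 FPKM in the same mouse 34, below 2.74 to 3.16 FPKM. The Tek transcript ENSMUST00000073939 was listed at 0 in 12-month mouse 21, with the others at 4.59 to 6.21 FPKM. The Kdr intronic circle ciRNA44 had 75 estimated counts in 12-month mouse 21, with 46 to 51 in the others.

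Of the 14 values 9 belonged to Hif1a transcripts, each the highest of its group. The assembled transcript of 11 exons (MSTRG.8298.10) stood at 5.88 FPKM in 3-month mouse 5, above 0.743 to 1.97 FPKM, and at 5.52 FPKM in 24-month mouse 34, above 1.21 to 2.20 FPKM. In 12-month mouse 17, MSTRG.8298.9 was at 7.72 FPKM, MSTRG.8298.7 at 3.26 FPKM and MSTRG.8298.3 at 2.76 FPKM. MSTRG.8298.7 was also high in 3-month mouse 7, at 4.06 FPKM. ENSMUST00000110461 was at 5.66 FPKM in 24-month mouse 33. ENSMUST00000110464 was at 4.21 FPKM in 12-month mouse 19 and at 4.07 FPKM in 24-month mouse 34.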

How the results depend on the processing

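At the gene level 0 of 10 members passed the adjusted test in any comparison under any alternative run. At an unadjusted p under 0.05 the 2 members of 24 against 3 months became 0 with median-of-ratios scaling, 0 with all 15 mice in one fit and 1 with annotated transcripts alone. For 12 against 3 months 0 became 1 with TPM and 3 with median-of-ratios scaling, and for 24 against 12 months 0 became 1 with TPM, 1 with median-of-ratios scaling and 1 with all 15 mice in one fit. Leaving out each mouse gave 0 to 3, 0 to 1 and 0 to 1 in these comparisons. Sign changes were limited to log2 differences that had not passed the test. With median-of-ratios scaling, 24 against 3 months gave -0.10 for Flt1 and -0.033 for Hif1a, and 12 against 3 months -0.068 for Pecam1. With annotated transcripts alone, 24 against 3 months gave 0.14 for Vegfa, -0.33 for Flt1 and -0.12 for Hif1a, 12 against 3 months 0.21 for Vegfa, and 24 against 12 months -0.023 for Flt1 and -0.38 for Tek. With TPM, 24 against 12 months gave 0.014 for Vegfa and 0.036 for Cdh5. The causes of these moves were not tested. Leaving out each mouse, 24 against 3 months ranged from -0.0084 to 0.22 for Kdr, -0.086 to 0.077 for Flt1, -0.37 to 0.23 for Plvap and -0.013 to 0.19 for Hif1a, and 24 against 12 months from -0.12 to 0.039 for Vegfa and -0.25 to 0.10 for Cdh5.

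For member transcripts 0 passed the adjusted test throughout, and leaving out each mouse gave 3 to 11, 1 to 9 and 3 to 7 at an unadjusted p for 24 against 3, 12 against 3 and 24 against 12 months. For circular RNAs DESeq2 called 1 for 12 against 3 months and 2 for 24 against 12 months, where edgeR called 0. Leaving out each mouse gave 0 to 1, 0 to 2 and 0 to 2 adjusted calls, with 0 for 24 against 3 months without mouse 33 only, 2 for 12 against 3 months without 3-month mouse 6 only, and 2 for 24 against 12 months without 24-month mouse 32 only. At an unadjusted p these were 1 to 4 for 24 against 3 months and 2 to 5 for 24 against 12 months. The soluble Flt1 share kept its direction for both 12-month comparisons under every alternative run, at -14.8 to -11.7 points and 9.58 to 12.2 points when each mouse was left out. For 24 against 3 months it turned to 12.7 points with annotated transcripts alone, and to 13.2 points when the coding soluble transcript was divided by both coding transcripts, an alternative chosen after seeing the data. Of the gene pairs, 1 passed after adjustment with either coefficient and 0 without the 2 mice farthest from the median. The alternatives for the listed gene Ndrg1 were added after seeing the data. No paired analysis was possible because the ages share no replicate numbers.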

Other observations

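Plvap, the gene of fenestral diaphragms, was looked at further after its spread between mice had been seen. With each age centred, the gene most like it over the 15 mice was Flt4, a receptor that fenestrated endothelium carries (Pearson's r = 0.91 of 13445 genes), followed by Marveld1 (r = 0.89) and Tek (r = 0.86). Its r with 3 red cell markers ranged from -0.70 to -0.24 and with 3 leukocyte markers with a mean of at least 1 FPKM from -0.65 to -0.30. The r ranged from -0.35 to 0.60 with 6 podocyte markers, from -0.35 to 0.63 with 5 proximal tubule markers, from -0.17 to 0.57 with 4 thick limb markers and from 0.08 to 0.60 with 4 distal and collecting markers. With 3 inner medullary markers it ranged from -0.48 to 0.17, and with 7 markers of pericytes, mesangium and smooth muscle from -0.20 to 0.27. These values are given as a description.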
